A study of Mus musculus with 15 samples.

Results

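The Hox cluster genes of the mouse were followed through the culture adaptation of embryonic fibroblasts with and without CIZ1. In the table of expression, each transcription unit is a row with 1 or more gene symbols, and a unit was taken where a symbol read Hoxa, Hoxb, Hoxc or Hoxd and then a paralogue number. The rule found 48 of 65522 units, which carried 39 symbols. Of these units 11 lie in HoxA, 16 in HoxB, 10 in HoxC and 11 in HoxD.

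Poly(A)-selected RNA of 15 female C57BL/6 samples was sequenced. Primary populations, grown from separate embryos and collected before passage 5, were compared with a culture-adapted line derived from each. The WT embryos (CIZ1 +/+) were E13.1, E13.8 and E14.4, and the CIZ1 null embryos (CIZ1 -/-, a gene trap) were E13.15, E13.17 and E14.2, giving 4 groups of 3 samples. Primary E13.17 also held a transgene for GFP-CIZ1 under the control of doxycycline, which it was not given. Another untreated transgenic population, numbered S13, and 2 given doxycycline at 5 to 10 µg/ml, numbered S14 and S15, were all primary and CIZ1 null. Each adapted line is the single derivative of its embryo, so what belongs to a line and what belongs to an embryo cannot be told apart.

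Hox genes encode homeodomain transcription factors that give cells of the embryo their position along the head-to-tail axis and along the limbs. They lie in 4 clusters, and within a cluster the order on the chromosome follows the order of expression along the body, with low paralogue numbers anterior and high ones posterior. Fibroblasts are known to keep a Hox pattern that reflects the body site they came from, and Polycomb complexes are known to hold Hox genes silent where they are not used. CIZ1 is a nuclear matrix protein that anchors the noncoding RNA Xist to the inactive X chromosome.

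In GRCm38, with gene models of GENCODE M21, HoxA spans chr6:52155590-52260880 on the minus strand with 11 genes, HoxB chr11:96194316-96368256 on the plus strand with 10, HoxC chr15:102921103-103036852 on the plus strand with 9, and HoxD chr2:74668310-74765142 on the plus strand with 9. Values are FPKM, fragments scaled to the length of the transcript and the number of mapped fragments, so levels can be set against each other per length. Units do not map neatly to genes. Of the 48 units, 5 listed several Hox genes (Hoxa2/Hoxa3/Hoxa5/Hoxa6, Hoxc5/Hoxc10, Hoxc8/Hoxc9, Hoxd3/Hoxd4 and Hoxd8/Hoxd10/Hoxd11), and 10 symbols headed several units, here numbered from the highest mean level down. Units of 1 locus can share reads, also across strands, as the values carry no strand. In bulk RNA, fewer cells with a gene on and less RNA per cell cannot be told apart.

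The promoters of 4 members, 1 from each cluster, are shown because their genes were above 0 in all 6 primary populations and at 0 or nearly 0 in some adapted lines. The lowest primary value was 0.837 FPKM, for Hoxa13 in E14.4. Hoxc4 was the only HoxC gene for which a promoter was found. Hoxa13 and Hoxd13 are the most posterior genes of HoxA and HoxD, and Hoxb8 and Hoxc4 belong to the clusters that were listed at or near 0 in 2 adapted lines. Each run holds 250 bases before and 50 after the start, from RefSeq in GRCm38.p6, 5′ to 3′ on the strand of the gene, with CG dinucleotides in capitals.
Hoxa13: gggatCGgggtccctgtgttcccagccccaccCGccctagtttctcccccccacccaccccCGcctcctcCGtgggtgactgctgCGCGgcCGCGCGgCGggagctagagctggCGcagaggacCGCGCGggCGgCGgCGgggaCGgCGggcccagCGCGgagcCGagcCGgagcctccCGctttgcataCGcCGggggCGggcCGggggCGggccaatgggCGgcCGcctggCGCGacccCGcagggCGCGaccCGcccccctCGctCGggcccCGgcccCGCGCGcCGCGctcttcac
Hoxd13: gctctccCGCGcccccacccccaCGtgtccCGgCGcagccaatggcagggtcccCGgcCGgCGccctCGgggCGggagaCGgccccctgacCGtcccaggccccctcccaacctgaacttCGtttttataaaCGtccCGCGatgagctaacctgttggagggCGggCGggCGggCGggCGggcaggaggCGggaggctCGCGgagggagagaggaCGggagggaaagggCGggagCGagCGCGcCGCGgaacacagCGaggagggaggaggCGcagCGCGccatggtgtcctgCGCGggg
Hoxb8: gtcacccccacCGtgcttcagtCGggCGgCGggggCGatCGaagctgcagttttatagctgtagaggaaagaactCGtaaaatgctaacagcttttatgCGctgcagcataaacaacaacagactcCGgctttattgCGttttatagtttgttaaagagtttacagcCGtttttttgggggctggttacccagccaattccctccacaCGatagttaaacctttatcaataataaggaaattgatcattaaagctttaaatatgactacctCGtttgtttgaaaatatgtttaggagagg
Hoxc4: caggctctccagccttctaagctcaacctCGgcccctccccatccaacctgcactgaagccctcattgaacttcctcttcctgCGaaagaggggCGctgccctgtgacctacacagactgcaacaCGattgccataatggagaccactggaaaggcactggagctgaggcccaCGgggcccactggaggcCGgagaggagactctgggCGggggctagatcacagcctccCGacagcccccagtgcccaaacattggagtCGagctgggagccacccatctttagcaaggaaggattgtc
The positions are chr6:52260831-52261130 on the minus strand for Hoxa13, and chr2:74667975-74668274, chr11:96281655-96281954 and chr15:103034145-103034444 on the plus strand for Hoxd13, Hoxb8 and Hoxc4. Hoxa13 held 45 CG in 300 bases and 81.0% G + C, and 1.93% of all 32851 promoters of this length held as many CG. Hoxd13 held 37 (5.58% of all promoters held as many), Hoxb8 13 (37.9%) and Hoxc4 9 (45.8%). The table had 24 promoters for 22 Hox symbols, with a median of 14.5 CG and a range of 4 to 45, against a median of 7 for all promoters. The composite motif of HOX and PBX proteins, searched as TGATTNAT on both strands, was in 2 of the 24 (8.33%) and in 3.22% of all promoters.

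Ciz1, the targeted gene, was at 24.96, 21.4 and 19.0 FPKM in primary WT E13.1, E13.8 and E14.4 and at 0.251, 0.171 and 0.279 in primary CIZ1 null E13.15, E13.17 and E14.2. Adapted lines were at 24.1, 19.3 and 18.7 (WT) and 0.0546, 0.724 and 0.319 (CIZ1 null), the untreated S13 at 0.514, and S14 and S15 at 296.4 and 190.7. The Ciz1 level of all 15 samples thus matched the labelled genotype and treatment. It does not tell primary from adapted samples, embryos from each other, or untreated transgenic samples from other CIZ1 null samples. The depth of the libraries is unknown from FPKM. From the steps of low values it was between 0.48 and 1.63 times that of primary E14.4, and between 0.54 and 1.19 times in the adapted lines. The summed level of 29 units of fibroblast markers was 14317 to 15975 FPKM in the 6 primary populations and 4095 to 9570 in the 6 adapted lines. At an adjusted p under 0.05 in limma, 1 of these 29 units was higher and 0 lower in the WT lines (9.55% of all units called). In the CIZ1 null lines 0 were higher and 6 lower (4.86% of all units called). Their median log2 differences were -1.07 and -1.30. Adapted lines were also lower in the sums of muscle markers (0.0660 to 0.906 against 13.3 to 34.1 FPKM, carried by Des, with Myod1, Myf5 and Pax7 listed at 0), blood markers (3.86 to 10.2 against 32.3 to 49.5) and epithelial markers (0 to 22.6 against 26.0 to 65.1). Endothelial markers summed to 0.363 to 4.88 FPKM in the lines and 1.27 to 2.19 in primary populations, neural markers to 0.0439 to 3.13 and 0.563 to 8.16, and cartilage markers to 0.402 to 25.3 and 11.8 to 16.5. Thy1, a fibroblast surface marker, was listed at 0 in adapted E13.8 and at 0.215 in adapted E13.17, against 643.0 to 979.3 FPKM in primary populations. The part of other cells in the Hox levels was not tested.

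In primary fibroblasts all 4 clusters were expressed. The summed FPKM of the HoxA units was 58.9, 47.9 and 21.7 in WT E13.1, E13.8 and E14.4 and 30.3, 38.2 and 34.4 in CIZ1 null E13.15, E13.17 and E14.2. The HoxB sum, in this order of embryos, was 28.5, 56.7 and 109.6 and 77.2, 74.6 and 76.8. HoxC summed to 23.9, 39.9 and 52.0 (WT) and 47.0, 63.5 and 60.9 (CIZ1 null), and HoxD to 41.5, 32.3 and 29.2 and 32.9, 57.7 and 40.4. A sum counts a gene with several units more than once. The 3 WT populations ran in opposite orders in HoxA and HoxB, with E13.1 highest in HoxA and lowest in HoxB and E14.4 the reverse. The 3 CIZ1 null populations lay within the WT range of HoxA and HoxB.

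By paralogue, the highest levels in primary cells were those of the trunk and limb genes. The leading units were Hoxb9 of the thoracic paralogue group (8.26 to 32.8 FPKM over 6 populations), Hoxc8/Hoxc9 (5.97 to 20.4) and Hoxc6 (5.64 to 17.2), then, by mean level, Hoxd8/Hoxd10/Hoxd11 (8.2 to 12.9), Hoxa10 (4.75 to 15.7), Hoxc5/Hoxc10 (4.73 to 12.5) and Hoxa9 (4.94 to 12.5). Neighbours in this order overlapped. The hindbrain genes Hoxb1 and Hoxd1 were low, with Hoxb1 listed at 0 in all 15 samples and Hoxd1 at no more than 0.360 FPKM. Hoxb13, the most posterior gene of HoxB, stayed at or under 0.0977 in primary cells, and 0.566 in adapted E14.4 was its highest value. The number of Hox units at 1 FPKM or more was 35 to 39 of 48 in the primary populations.

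**Figure D1:**
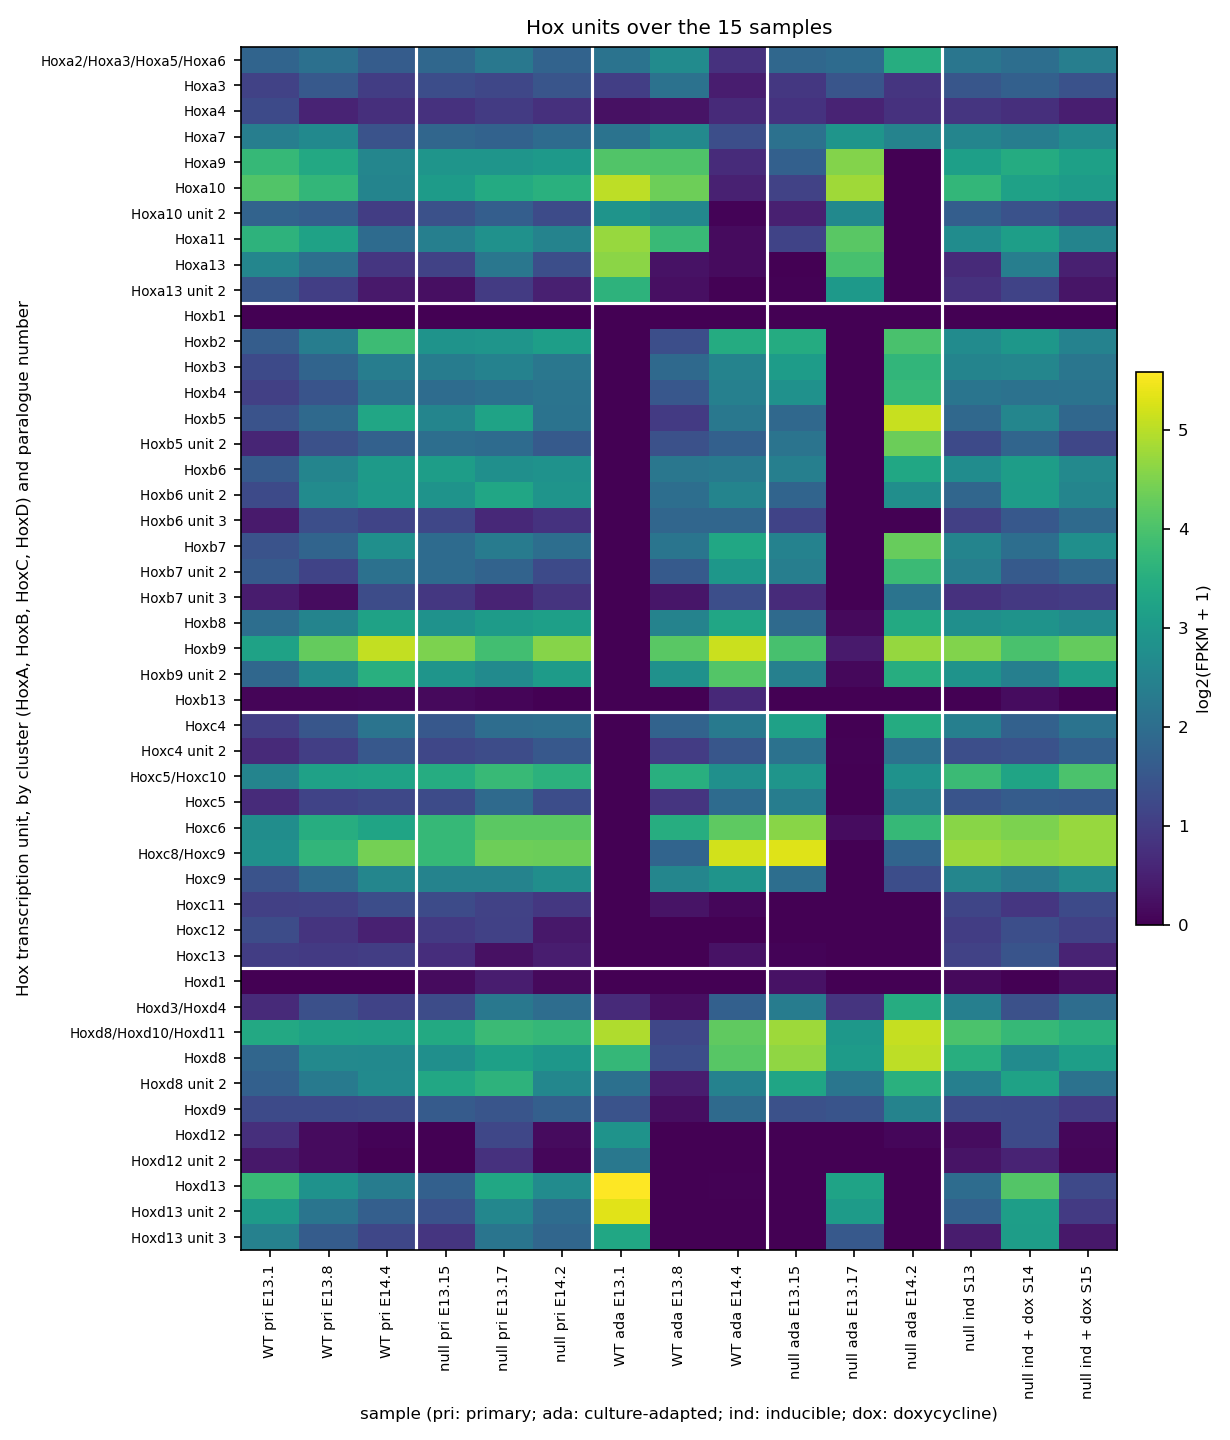
Levels of 47 of the 48 Hox units (y axis, by cluster and paralogue number) in the 15 samples (x axis), as log2(FPKM + 1) in colour. Adapted E13.1 and E13.17 are dark (at or near 0) over HoxB and HoxC, with 27 and 24 units listed at 0, while the primary columns hold 1 to 3 units at 0.

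After adaptation the lines differed in which clusters were expressed. In adapted WT E13.1, HoxB and HoxC both summed to 0 FPKM, while HoxA stood at 122.6 and HoxD at 152.5. In adapted WT E13.8, HoxA (69.1), HoxB (51.2) and HoxC (32.6) were expressed and HoxD stood at 3.46. In adapted WT E14.4, HoxB (113.2), HoxC (74.7) and HoxD (44.0) were expressed and HoxA stood at 5.41. Each of the 3 WT lines was thus the lowest of the 3 in another cluster or pair of clusters. In E14.4 the fall in the HoxA sum was mostly that of paralogues 9 to 13, from 14.7 to 1.35 FPKM. Hoxa7 went from 1.69 to 1.55 there and Hoxa2/Hoxa3/Hoxa5/Hoxa6 from 2.08 to 0.735.

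The CIZ1 null lines differed among themselves as well. Adapted E13.17 held 105.1 FPKM of HoxA and 38.2 of HoxD, with HoxB at 0.519 and HoxC at 0.164. Adapted E13.15 held 14.3, 68.8, 87.2 and 65.2 FPKM of HoxA, HoxB, HoxC and HoxD, and adapted E14.2 held 17.2, 186.6, 40.2 and 90.4. The highest and the lowest sum over all Hox units lay closer, as a ratio, than those of any single cluster, from 143.9 to 334.2 FPKM in the adapted lines and from 152.7 to 234.0 in the primary populations. HoxA made up 10.2% to 38.6% of the Hox sum in primary populations and 2.28% to 73.0% in adapted lines, and HoxB 18.6% to 51.6% and 0% to 55.8%.

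**Figure D2:**
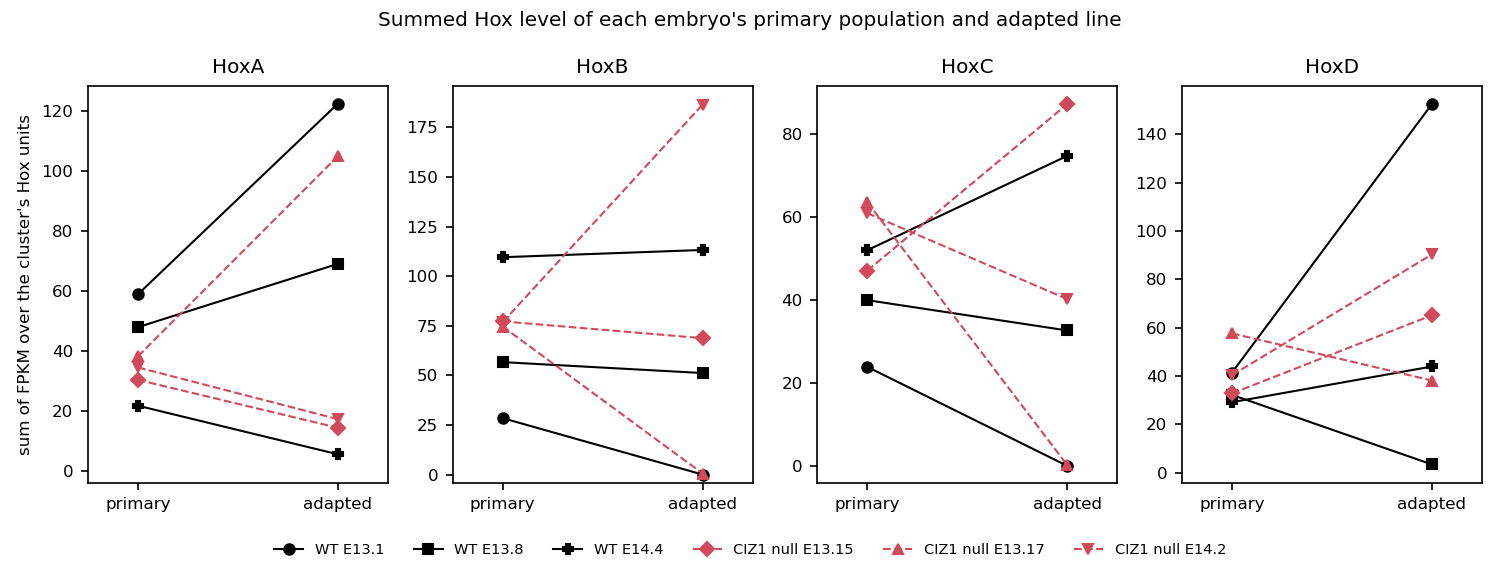
Summed FPKM of the Hox units of each cluster (y axis) in the primary population and the adapted line (x axis) of each embryo, with black solid lines for WT and red dashed lines for CIZ1 null. Lines cross in every cluster: E13.1 goes from 28.5 to 0 in HoxB and from 41.5 to 152.5 in HoxD, and E14.2 from 76.8 to 186.6 in HoxB.

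HoxB was listed at or near 0 in 2 adapted lines. Hoxb9, which patterns the thorax, was at 8.26, 18.2 and 32.8 FPKM in primary WT E13.1, E13.8 and E14.4, at 21.3, 13.9 and 22.7 in primary CIZ1 null E13.15, E13.17 and E14.2, at 0, 16.7 and 34.4 in the WT lines and at 14.6, 0.331 and 24.9 in the CIZ1 null lines. Adapted E13.1 and E13.17 stood apart from the other 10 samples. All 16 HoxB units were listed at 0 in E13.1 and 13 of 16 in E13.17, and no other adapted line had more than 3.

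Hoxb2, a hindbrain gene at the other end of the cluster, followed the same lines. It was at 2.12, 4.16 and 13.3 FPKM in primary WT and at 6.31, 6.59 and 7.81 in primary CIZ1 null populations, then at 0, 1.52 and 9.81 in the WT lines and 9.87, 0 and 14.7 in the CIZ1 null lines. Hoxb8, another thoracic gene, whose promoter held 13 CG, was at 0 in E13.1 and 0.101 in E13.17 against 3.06 to 8.27 in primary populations. HoxB was thus listed at 0 from end to end in E13.1.

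Hoxb5, which patterns the shoulder level of the axis, was at 1.68, 2.74 and 8.89 FPKM in primary WT and 4.86, 8.42 and 3.37 in primary CIZ1 null populations, at 0, 0.941 and 3.68 in the WT lines and at 2.69, 0 and 34.0 in the CIZ1 null lines. Only adapted E14.2 was above the primary range. The same line was the highest of all 12 samples for Hoxb2, Hoxb3 (11.8), Hoxb4 (12.4) and Hoxb7 (18.6), genes named here after their values were seen.

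Other units of HoxB differed from their neighbours. Hoxb6 unit 2 was at 1.39, 5.48 and 7.03 FPKM in primary WT and 6.30, 8.91 and 6.43 in primary CIZ1 null populations, and at 0, 3.07 and 4.71 and 2.48, 0 and 5.80 in their lines. It was lower in the adapted line of all 6 embryos, although the groups overlapped. Hoxb6 unit 3 was listed at 0 in adapted E14.2 too, where Hoxb6 unit 2 was not, and was at 2.57 and 2.61 in adapted E13.8 and E14.4 against 0.319 to 1.53 in primary populations. Hoxb9 unit 2 followed Hoxb9, with 2.63 to 10.4 in primary populations, 0 and 0.0869 in adapted E13.1 and E13.17 and 4.40 to 16.1 in the other lines.

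HoxC was listed at or near 0 in the same 2 lines. Hoxc6, a thoracic gene, was at 5.64, 10.2 and 8.54 FPKM in primary WT and 12.4, 17.2 and 17.1 in primary CIZ1 null populations, at 0, 10.2 and 17.3 in the WT lines and at 23.0, 0.136 and 12.4 in the CIZ1 null lines. All 10 HoxC units were listed at 0 in adapted E13.1 and 8 of 10 in E13.17. In primary cells all 3 CIZ1 null populations were above all 3 WT populations for Hoxc6, with an adjusted p of 0.680 in limma. The share of all units with such a separation was not counted, so it is not read as an effect of genotype.

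Within HoxC, neighbouring genes parted in other lines. Hoxc8/Hoxc9 was at 5.97, 11.8 and 20.4 FPKM in primary WT and 12.4, 19.4 and 19.0 in primary CIZ1 null populations, at 0, 2.51 and 36.1 in the WT lines and at 38.9, 0 and 2.49 in the CIZ1 null lines. Adapted E14.4 and E13.15 lay above the primary range, and the other 4 below it. Hoxc9 alone was at 1.70 to 5.78 in primary populations, 0, 4.92 and 6.42 in the WT lines and 3.06, 0 and 1.49 in the CIZ1 null lines. Hoxc5/Hoxc10 was at 4.73 to 12.5 in primary populations, 0, 10.5 and 6.02 in the WT lines and 6.55, 0 and 6.19 in the CIZ1 null lines. So in adapted E13.8 the Hoxc8/Hoxc9 unit was below its primary range while Hoxc6, Hoxc9 and Hoxc5/Hoxc10 were within it.

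At the posterior end of HoxC, Hoxc11, Hoxc12 and Hoxc13 were at no more than 1.51 FPKM in primary populations and lower in each embryo's line. Hoxc13, known for its part in hair and nails, was at 1.01, 0.932 and 1.01 FPKM in primary WT and 0.665, 0.192 and 0.365 in primary CIZ1 null populations, and at 0, 0 and 0.206 and 0.0389, 0 and 0 in their lines. Hoxc11 was at 0.874 to 1.51 in primary populations and at most 0.230 in the lines, and Hoxc12 at 0.283 to 1.45 and listed at 0 in all 6 lines. Hoxc11 and Hoxc12, named after their values were seen, were 2 of 47 Hox units with all 6 adapted lines below all 6 primary populations, against 6.05% of 37998 units above 0 in any of these 12 samples. No Hox unit had all adapted lines above all primary populations (4.71% of all units). Hoxc11, Hoxc12, Hoxc13 and Hoxb6 unit 2 were the 4 of 47 lower in the adapted line of all 6 embryos, against 11.4% of all units. None of these counts was above the share of all units.

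Posterior HoxA genes, which pattern limbs and the urogenital tract, went with other lines than HoxB. Hoxa10 was at 15.7, 12.02 and 4.75 FPKM in primary WT and 7.35, 9.62 and 10.7 in primary CIZ1 null populations, at 31.5, 19.5 and 0.433 in the WT lines and at 1.15, 26.5 and 0 in the CIZ1 null lines. Adapted E13.1, E13.8 and E13.17 lay above every primary population, and E14.4, E13.15 and E14.2 below every one. Lines of both genotypes were on each side.

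The neighbours of Hoxa10 had high and low values in the same lines. Hoxa9 was at 12.5, 9.41 and 4.94 FPKM in primary WT and 6.56, 6.57 and 7.001 in primary CIZ1 null populations, and at 15.9, 15.5 and 0.608 and 2.28, 22.5 and 0 in their lines. Hoxa11 was at 11.3, 8.29 and 2.87 and 4.35, 6.11 and 4.63 in primary cells, and at 25.6, 12.9 and 0.128 and 1.18, 16.9 and 0 in the lines. Adapted E13.1, E13.8 and E13.17 were again above all primary populations for both genes and the other 3 below. Summed over the units of paralogues 9 to 13, HoxA was at 14.7 to 48.7 in primary populations and, in the lines, at 114.3 (E13.1), 53.4 (E13.8), 1.35 (E14.4), 5.04 (E13.15), 92.8 (E13.17) and 0 (E14.2).

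Hoxa13, the most posterior gene of the cluster with the promoter richest in CG of the 4 printed and a role in hands and feet, parted from Hoxa11 in E13.8. It was at 4.91, 3.13 and 0.837 FPKM in primary WT and 1.13, 3.67 and 1.52 in primary CIZ1 null populations, at 23.7, 0.215 and 0.121 in the WT lines and at 0, 14.6 and 0 in the CIZ1 null lines. Only adapted E13.1 and E13.17 were above the primary range, and the other 4 were below it. These are the 2 lines in which HoxB and HoxC were at or near 0.

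Anterior and central HoxA units stayed above 0 in lines with low posterior ones, but some were below their primary range there. Hoxa2/Hoxa3/Hoxa5/Hoxa6 was at 2.08 to 3.73 FPKM in primary populations, 3.34, 5.47 and 0.735 in the WT lines and 2.66, 2.89 and 10.1 in the CIZ1 null lines. In adapted E14.2, where Hoxa9, Hoxa10, Hoxa11 and Hoxa13 were listed at 0, it was the highest of the 12 samples. In adapted E14.4 it was below every primary population. Hoxa3 was at 0.354, 0.866 and 0.830 in adapted E14.4, E13.15 and E14.2, below its primary range of 1.02 to 1.96. Hoxa7, a thoracic gene named after its values were seen, was at 4.27, 5.32 and 1.69 in primary WT and 2.56, 2.40 and 2.87 in primary CIZ1 null populations, and at 3.38, 5.21 and 1.55 and 3.27, 6.58 and 4.63 in their lines. It was slightly lower in the lines of all 3 WT embryos and higher in those of all 3 CIZ1 null embryos, the single Hox unit of 47 with such a split (1.02% of all units).

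In HoxD, Hoxd13, the digit gene at the posterior end, was at 12.7, 6.21 and 4.10 FPKM in primary WT and 2.28, 9.08 and 5.47 in primary CIZ1 null populations. Its lines were at 47.1, 0 and 0.0292 (WT) and 0, 8.46 and 0 (CIZ1 null). Adapted E13.1 was above the primary range, E13.17 was within it and the other 4 were below. Hoxd13 unit 3 was at 0.816 to 4.45 in primary populations, at 9.04 and 1.94 in adapted E13.1 and E13.17 and listed at 0 in the other 4. Hoxd12, next to it and also named after its values were seen, was at 6.26 in adapted E13.1 and at no more than 1.39 in any other of the 15 samples.

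The middle of HoxD differed from Hoxd13. Hoxd8/Hoxd10/Hoxd11 was at 9.30, 8.25 and 8.2 FPKM in primary WT and 9.52, 12.9 and 12.1 in primary CIZ1 null populations, at 29.1, 1.28 and 17.8 in the WT lines and at 26.2, 6.90 and 33.1 in the CIZ1 null lines. Hoxd8 was at 2.61, 5.16 and 5.27 and 5.85, 8.07 and 6.75 in primary cells and at 12.1, 1.5 and 16.5 and 24.3, 7.40 and 31.9 in the lines. Adapted E13.1, E14.4, E13.15 and E14.2 were above every primary population for both units, and E13.8 was below.

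Other units of HoxD were lowest in the same line. Hoxd3/Hoxd4 was at 0.586, 1.56 and 1.19 FPKM in primary WT and 1.46, 3.69 and 2.98 in primary CIZ1 null populations, and at 0.597, 0.164 and 2.30 and 4.06, 0.803 and 10.0 in their lines. Hoxd8 unit 2 was at 2.28, 3.86 and 5.4 and 9.13, 11.2 and 4.96 in primary cells and at 3.18, 0.357 and 4.59 and 8.80, 3.58 and 10.7 in the lines. Adapted E13.8 was the lowest of the 12 samples for both, as it was for Hoxd9 (0.162 against 1.38 to 4.62 elsewhere).

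**Figure D3:**
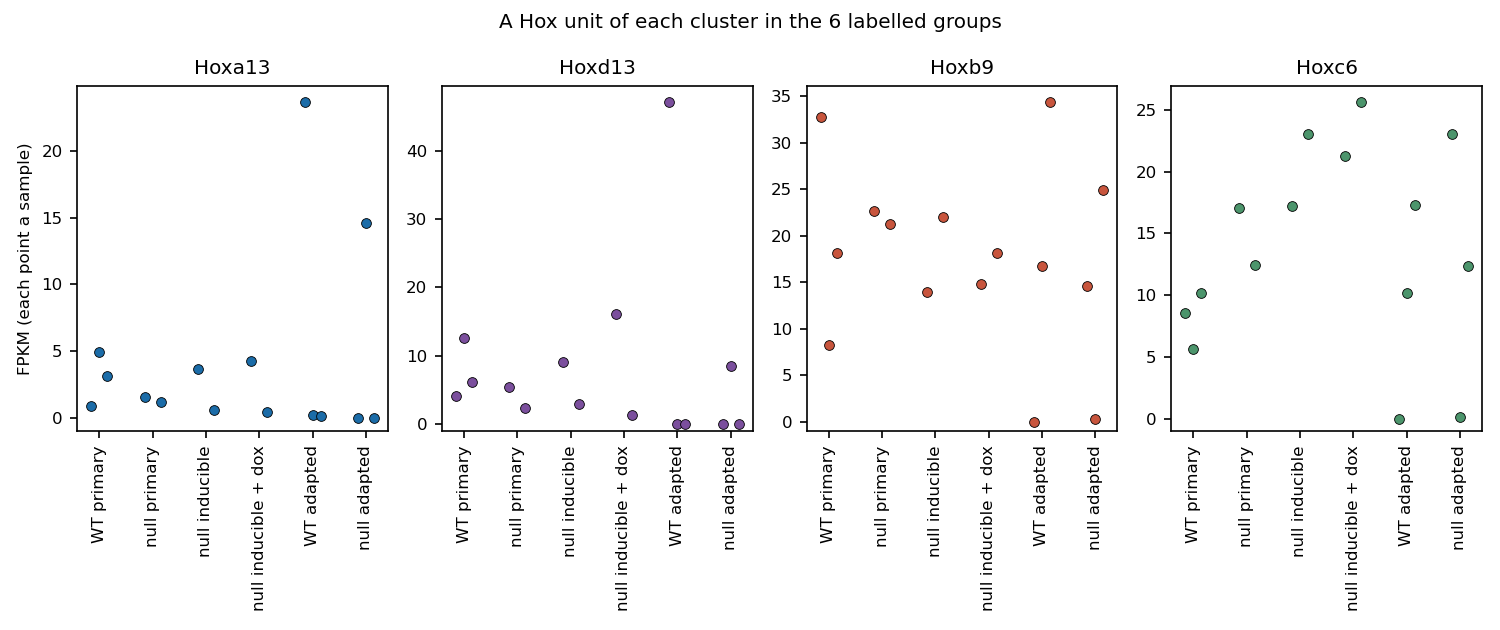
FPKM (y axis) of Hoxa13, Hoxd13, Hoxb9 and Hoxc6 in the 6 groups as labelled (x axis; dox, doxycycline), each point a sample. Within each adapted group points run from 0 or near 0 to beyond most primary points, as for Hoxd13 in the WT lines (0, 0.0292 and 47.1).

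The spread among adapted lines was measured over the units at 1 FPKM or more in all 6 primary populations, which 29 Hox units and 16811 units in all passed. This filter keeps primary values away from 0 and sets no floor for the lines. A larger SD in the lines, and values at 0 only there, can thus follow in part from it, for Hox and other units. The SD within genotype, on the log2(FPKM + 1) scale, had a median of 0.44 among primary populations and 1.68 among adapted lines for the Hox units, against 0.21 and 0.38 for all units. The SD was larger among adapted lines for 29 of 29 Hox units and for 84.0% of all. Primary populations thus also differed more in Hox units than in the median unit.

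Of the 29 Hox units, 22 were listed at 0 in at least 1 adapted line, against 509 of all units (3.03%), and 22 ranged over 3 log2 units (8-fold) or more among the 6 lines, against 1047 (6.23%). Among 11769 units whose primary means lay within the range of the Hox units (1.45 to 19.5 FPKM), the shares were 3.85% and 5.74%. By line, 16, 2 and 1 of the 29 were listed at 0 in WT E13.1, E13.8 and E14.4 and 2, 12 and 6 in CIZ1 null E13.15, E13.17 and E14.2, against 0.416% to 1.53% of all units. Leaving out any single line left 18 to 22 and 17 to 22 units. Without both E13.1 and E13.17 the numbers were 6 and 8, with 1.86% and 3.33% of all units. The units of a cluster lie side by side and do not count as independent.

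**Figure D4:**
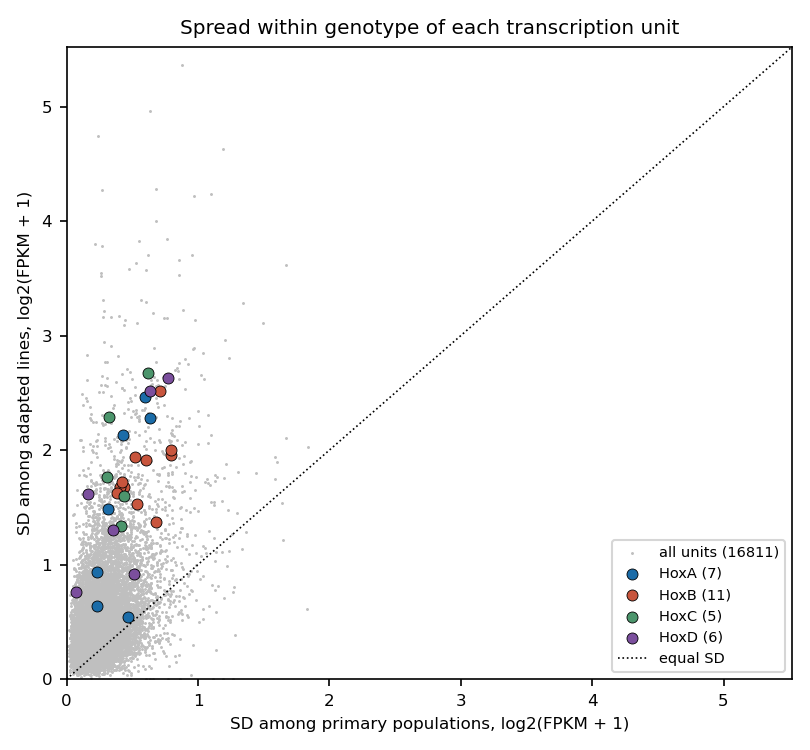
SD within genotype of log2(FPKM + 1) among primary populations (x axis) and among adapted lines (y axis) for the 16811 units at 1 FPKM or more in every primary population (grey) and the 29 Hox units among them (coloured by cluster). The Hox units all lie above the dotted line of equal SD, with medians of 0.44 and 1.68. The filter, set on primary populations only, favours that side.

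The same deviations were visible between a primary population and its own line in some embryos. Across the 39 Hox units tested in WT cells, the deviation from the group mean of the primary population and of its line had a Pearson correlation of 0.894 in E13.1, 0.907 in E14.4 and 0.323 in E13.8, where all 19919 units gave 0.146, 0.211 and -0.00539. Across 38 Hox units in CIZ1 null cells it was 0.211 in E13.15, 0.352 in E13.17 and -0.200 in E14.2. These points share a library, and neighbouring units share a cluster. Deviations from a group mean sum to 0, so the correlations within a genotype are not independent. In primary E13.1, HoxA was the highest of the 6 and HoxB and HoxC the lowest of the 6, the clusters that were at 122.6, 0 and 0 FPKM in its line. E13.17 differed: its primary population had the highest HoxC of the 6 (63.5 FPKM) and HoxB at 74.6. Its line was at 0.164 in HoxC and 0.519 in HoxB.

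The question of a common direction was put with limma on log2(FPKM + 1), over all units with a mean of at least 1 FPKM in the samples compared and with Benjamini-Hochberg adjustment over all of them. Between adapted and primary WT samples, 0 of 39 Hox units passed an adjusted p of 0.05, against 1902 of 19919 units (9.55%), and 0 of 39 had an unadjusted p under 0.05, against 30.6%. The differences with the greatest size were those of Hoxc8/Hoxc9 (log2 -1.29, SE 1.26, adjusted p = 0.525), Hoxb5 (-1.15, SE 0.69, adjusted p = 0.306) and Hoxd13 (-1.11, SE 1.49, adjusted p = 0.653). The median SE was 0.75 for the Hox units and 0.25 for all units. Blocking by embryo gave a median of 0.47 for the Hox units, and 4 of 39 had an unadjusted p under 0.05, all lower in the lines (29.6% of all units), with a lowest adjusted p of 0.0663. In HoxC 7 of 7 and in HoxB 12 of 13 units tested had a negative difference, and HoxA and HoxD were mixed. Over all clusters 32 of 39 differences were negative, where 46.9% of all units tested had a positive one. With quantile normalization 22 of 39 were negative, and the Hox median went from -0.20 to -0.05. Without adapted E13.1, in which every HoxB and HoxC unit was listed at 0, 19 of 37 were negative and 18 positive. The Hox median was then -0.05, so the one-sided direction rested on this line.

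Single lines decided what was called. Without adapted E13.1, Hoxd13 (log2 -2.97, adjusted p = 0.0254) and Hoxd13 unit 2 (-2.30, adjusted p = 0.0355) passed in WT cells. Without E13.8, Hoxd8/Hoxd10/Hoxd11 did (1.31, adjusted p = 0.0466), and without E14.4, Hoxa10 unit 2 (1.26, adjusted p = 0.0440). With no filter on mean FPKM, Hoxc13 (-0.90, adjusted p = 0.0297) and Hoxc11 (-1.03, adjusted p = 0.0337) passed.

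In CIZ1 null cells 0 of 38 Hox units passed in the same test, against 975 of 20044 units (4.86%), and 3 of 38 (7.89%) had an unadjusted p under 0.05, against 29.3%. These were Hoxc9 (log2 -1.48, SE 0.50, adjusted p = 0.118), Hoxa7 (0.65, SE 0.25, adjusted p = 0.146) and Hoxd8 (1.29, SE 0.50, adjusted p = 0.153). Differences of greater size but larger SE were those of Hoxc8/Hoxc9 (-1.77, SE 1.24, adjusted p = 0.380), Hoxc5/Hoxc10 (-1.68, SE 0.77, adjusted p = 0.203) and Hoxb6 unit 2 (-1.50, SE 0.66, adjusted p = 0.190). Without adapted E13.15, Hoxc8/Hoxc9 (-3.24, adjusted p = 0.0242) and Hoxc9 (-1.93, adjusted p = 0.0384) passed. Without adapted E13.17, Hoxc4 (1.47), Hoxd8/Hoxd10/Hoxd11 (1.29), Hoxd8 (1.88) and Hoxa10 (-2.78) passed, with adjusted p from 0.0279 to 0.0441. With no filter, Hoxc11 passed (-1.09, adjusted p = 0.0433). In the fit blocked by embryo 3 of 38 had an unadjusted p under 0.05, all lower in the lines (26.6% of all units), with a lowest adjusted p of 0.136, so Hoxa7 and Hoxd8 were not among them.

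**Figure D5:**
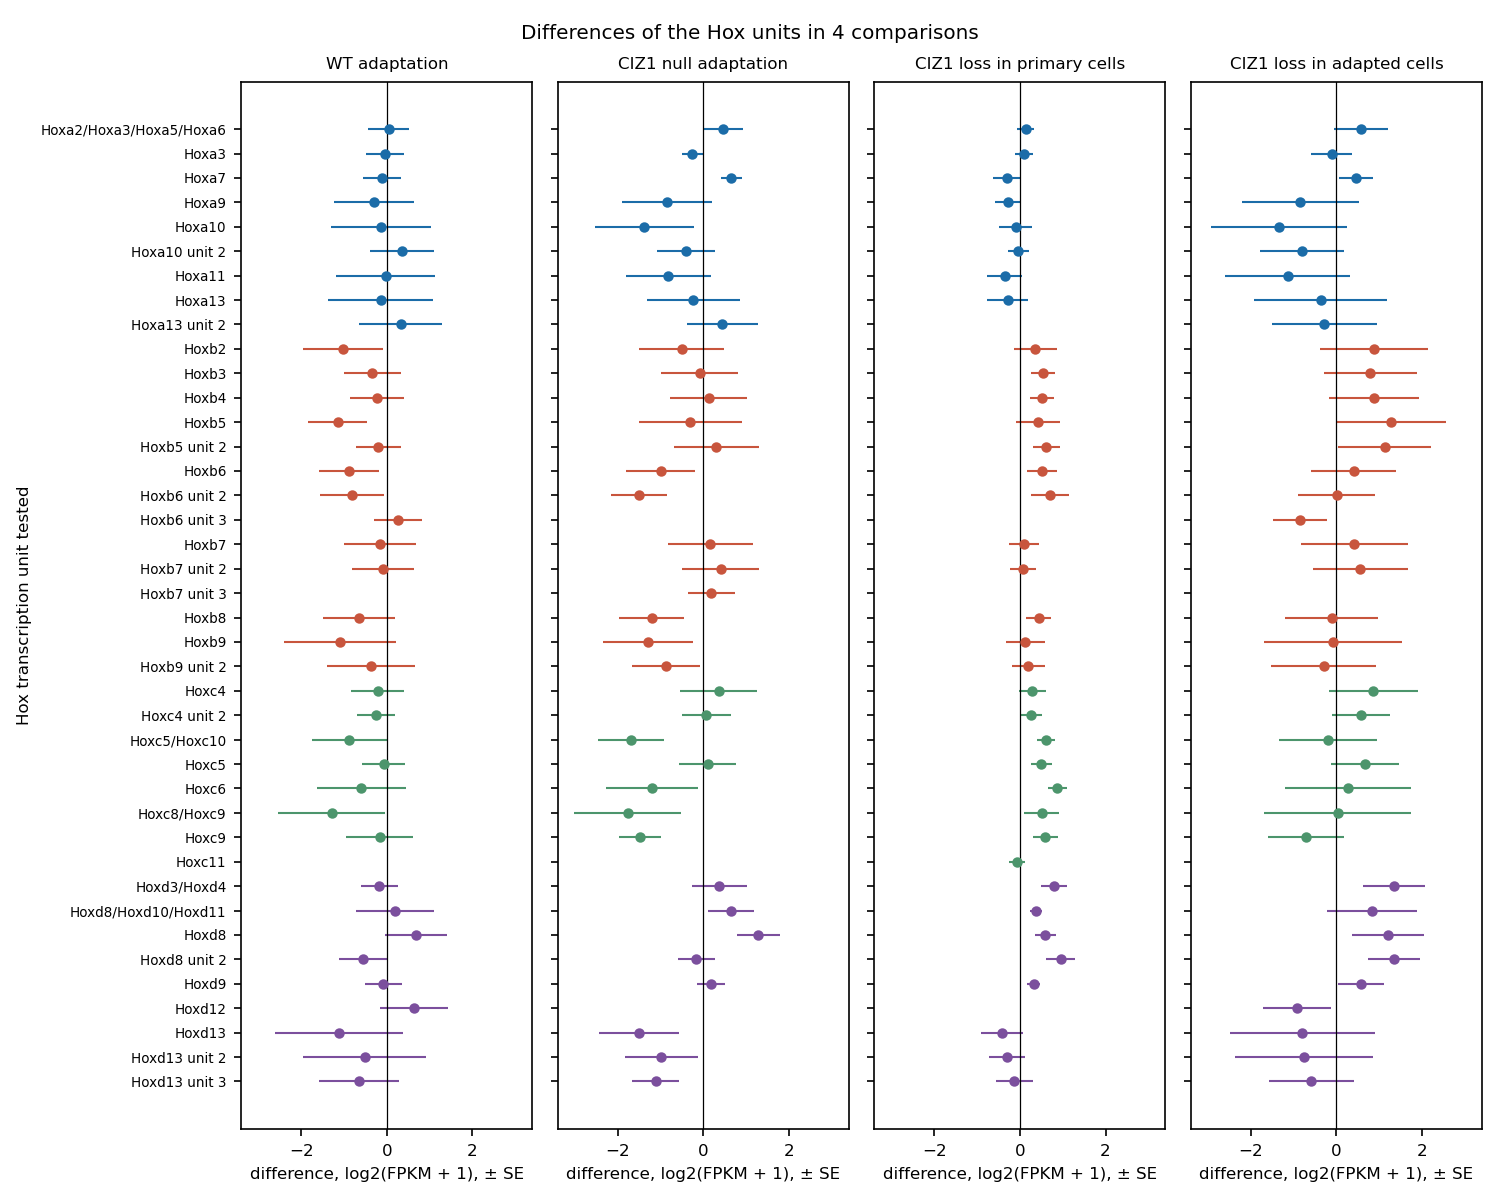
Differences in log2(FPKM + 1), with SE (x axis), of Hox units tested (y axis) in 4 comparisons. Error bars are short for CIZ1 loss in primary cells (median SE 0.30) and long in the other panels (0.75, 0.80 and 1.07), and no unit passed the adjusted threshold in any panel.

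Between CIZ1 null and WT primary populations, which share their samples with the comparisons of adaptation, 0 of 37 Hox units passed in limma, against 1 of 19566 units (0.00511%), which was Ciz1 (log2 -4.20, SE 0.15). At an unadjusted p under 0.05 there were 6 of 37 (16.2%), against 6.26% of all, and each of the 6 was higher in CIZ1 null cells. Hoxc6 had the smallest p, with a log2 difference of 0.88 (SE 0.23, adjusted p = 0.680). Hoxd8 unit 2 had the greatest difference (0.95, SE 0.34) and Hoxd3/Hoxd4 one of 0.79 (SE 0.30), both with an adjusted p of 0.776. Hoxc5/Hoxc10 (0.61), Hoxd8/Hoxd10/Hoxd11 (0.38) and Hoxd8 (0.60) made up the rest. This count rested on single libraries. It was 17 of 37 (13 higher and 4 lower in CIZ1 null cells) without WT E14.4, 1 of 38 without WT E13.1, 2 of 37 without E14.2, 1 of 38 without the transgenic E13.17 and 4 without WT E13.8 or without E13.15. In HoxB 12 of 12 units tested were higher in CIZ1 null cells (median 0.44) and in HoxC 7 of 8 (median 0.50). In HoxD 5 of 8 and in HoxA 2 of 9 were higher, against 49.96% of all units tested. Units of a cluster lie side by side and come from the same libraries, so these counts are not of independent units. The median of all Hox units tested was 0.29. It was 0.10 without WT E13.1 (27 of 38 higher) and 0.58 without WT E14.4 (28 of 37 higher).

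Between CIZ1 null and WT adapted lines 0 of 38 Hox units passed in limma, against 1 of 19976 units (0.00501%), again Ciz1 (log2 -4.01, SE 0.26), and 0 of 38 had an unadjusted p under 0.05, against 4.02% of all. Hoxd8 unit 2 (log2 1.35, SE 0.61), Hoxd3/Hoxd4 (1.34, SE 0.72) and Hoxa10 (-1.34, SE 1.58) had the greatest differences, each with an adjusted p of 0.998. The median SE of the Hox units was 1.07, against 0.33 for all units, so that differences of the size seen in primary cells were not detectable here.

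The interaction, whether the effect of CIZ1 loss differed between adapted and primary cells, gave 0 of 38 Hox units in limma, against 0 of 20046 units (0%), and 0 of 38 at an unadjusted p under 0.05, against 4.63% of all. The greatest differences were those of Hoxc9 (log2 -1.31, SE 1.01), Hoxa10 (-1.24, SE 1.801) and Hoxb5 (0.85, SE 1.53). That of Hoxb5 turned to -0.55 without adapted E14.2, the line in which it was at 34.0 FPKM.

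Doxycycline was compared in primary transgenic cells, with S14 and S15 against S13 and E13.17. The study names 2 embryos for its induced cells, so that treated and untreated samples may share embryos, but the labels do not tie S13, S14 or S15 to an embryo and the test took no account of it. Ciz1 rose (log2 7.49, SE 0.26, adjusted p = 2.96e-05 in limma), and 0 of 38 Hox units passed, against 3 of 19677 units (0.0152%). At an unadjusted p under 0.05 there was 1 of 38 (2.63%), against 3.57% of all. That was Hoxb6 unit 3, at 1.10 and 0.570 FPKM untreated and 1.93 and 2.79 treated (log2 0.88, SE 0.36, adjusted p = 1). Hoxd3/Hoxd4 followed, at 4.33 and 3.69 untreated and 1.60 and 3.02 treated (-0.63, SE 0.35).

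Posterior limb genes differed among the transgenic samples themselves. Hoxd13 was at 2.95 and 9.08 FPKM in untreated S13 and E13.17 and at 16.0 and 1.35 in treated S14 and S15, and Hoxa13 at 0.578, 3.67, 4.27 and 0.398. E13.17 and S14 were high and S13 and S15 low for both genes, whatever the treatment. Hoxd13 unit 3, at 0.349 and 3.49 untreated and 7.64 and 0.289 treated, had a difference of 0.44 (SE 0.92) that turned to -0.93 without S14 and to -0.43 without S13. For HoxC, Hoxc6 was at 23.0 and 17.2 untreated and 21.2 and 25.6 treated.

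Genes that work with the Hox proteins or around the clusters were read in the same fits. Of 17 units of PBX, MEIS and PKNOX, the homeodomain partners of Hox proteins, all were tested in both comparisons of adaptation. In WT cells 1 of 17 fell, a share near that of all units (9.55%). It was Meis3 (log2 -1.12, SE 0.21, adjusted p = 0.0298), from 16.7, 19.4 and 22 FPKM to 10.6, 7.84 and 6.92, and in CIZ1 null cells none passed, with Meis3 at 21.6, 17.6 and 14.5 and 10.4, 10.9 and 14.5.

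Noncoding units lie inside the clusters. Of 20 units 8 were tested for adaptation of WT and 7 of CIZ1 null cells, and none passed. Hoxb3os, antisense in HoxB, was at 2.67 to 11.8 FPKM in primary populations, at 0 and 0.0439 in adapted E13.1 and E13.17 and at 2.68 to 18.9 in the other lines. Hoxa11os was at 4.81 and 3.61 in adapted E13.1 and E13.17 against 0.192 to 1.43 in primary populations, and listed at 0 in E14.2. Hoxd3os1 was listed at 0 in adapted E13.8, the line low in Hoxd3/Hoxd4, and was at 1.24 to 4.92 in the other 11 samples.

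Some genes flanking the clusters stayed on where the clusters did not. None of the 16 tested in WT and 17 tested in CIZ1 null cells of 23 flanking units passed. Cbx5, beside HoxC, was at 28.1 and 21.5 FPKM in adapted E13.1 and E13.17, against 16.6 to 23.0 in primary populations. Calcoco1, also near HoxC, was at 29.8 and 70.2 in these lines, against 8.36 to 17.1. Mtx2, beside HoxD, was at 33.7 in adapted E13.8, against 55.9 to 90.7, and at 27.6 in E13.1, where Hoxd13 was at its highest.

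Of 25 units of core Polycomb subunits, which repress Hox genes, 20 were tested in WT and 21 in CIZ1 null cells. In WT cells 3 rose and 2 fell, 5 of 20 against 9.55% of all units called. Those that rose were both units of Bmi1 (log2 0.86 and 1.07) and Ezh2 (0.82), the methyltransferase, from 14.6, 14.2 and 11.7 FPKM to 23.4, 26.6 and 23.7. Both units of Phc2 fell (-1.90 and -1.80), the leading unit from 74.9, 79.6 and 98.2 to 12.9, 36.0 and 21.7. In CIZ1 null cells 4 rose and 2 fell, 6 of 21 against 4.86% of all units. Those that rose were both units of Bmi1 (1.10 and 1.11), Rnf2 (1.02) and Phc3 (1.04), and those that fell both units of Phc2 (-1.94 and -1.63), with adjusted p from 0.0194 to 0.0466 in limma.

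Ezh2 was at 23.5, 5.79 and 6.46 FPKM in adapted E13.15, E13.17 and E14.2, against 12.5 to 13.7 in primary CIZ1 null cells, so that its lines lay on both sides. None of these Polycomb units passed in a comparison of genotypes. The calls depended on the libraries. Leaving out any single primary population left 0 of the calls of these lists in either genotype, as did blocking by embryo. Calls over all units fell as well without a primary population, from 1902 to between 62 and 70 in WT cells. In CIZ1 null cells they fell from 975 to between 25 and 30, and with the block they were 499 (WT) and 10 (CIZ1 null).

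Upstream regulators were 29 units, of which 18 were tested in WT and 16 in CIZ1 null cells. The 2 calls in WT and 1 in CIZ1 null cells are near the shares of all units (9.55% and 4.86%). Kdm6b, a demethylase that opposes Polycomb, fell in WT cells (log2 -1.13, adjusted p = 0.0243) from 8.90, 9.20 and 11.2 FPKM to 4.64, 4.03 and 3.16, and Ctcf unit 2 rose (0.96, adjusted p = 0.0491). Kdm6a, a related demethylase, rose in CIZ1 null cells (1.10, adjusted p = 0.0395) from 3.85, 2.89 and 3.55 to 7.28, 10.5 and 7.90. Cyp26b1, which breaks down retinoic acid, did not pass and was at 30.7 FPKM in adapted E13.1 alone, against 0.227 to 1.32 in the other 11 samples. Aldh1a2, which makes retinoic acid, was at 0.801 to 2.06 in primary populations and listed at 0 in 5 of 6 lines, with 0.128 in E13.15.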

How the data were processed

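Poly(A)-selected RNA of 15 samples was sequenced, and the authors trimmed reads (cutadapt 1.8.3), aligned them to GRCm38 (HISAT2 2.0.5), assembled transcripts with Cufflinks and deposited normalised FPKM per transcription unit from Cuffnorm. They also deposited Cuffdiff 2.2.1 tables of group means, fold changes, p- and q-values, which were not used. An FPKM of 0 can be a low level or a failed estimate, and library strand is not given in the sources used here.

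Groups came from the labels, and the embryo of 12 samples from the study's per-line lists, whose values were 100% identical. The source name of primary E13.17 read S13 in the labels, and its group was taken from its title and genotype. The embryos of S13, S14 and S15 were not used. Primary CIZ1 null comprised the 2 non-transgenic populations and untreated transgenic E13.17.

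Values were compared as log2(FPKM + 1) with limma 3.58.1 (R 4.3.3; lmFit and eBayes with a variance trend), two-sided, over all units whose mean over the samples fitted reached 1 FPKM, with Benjamini-Hochberg adjustment and a threshold of 0.05. The pseudocount of 1 understates changes of low units. For doxycycline, all 9 primary samples shared an estimate of the spread. The code was tested on simulated data with known changes. Descriptions and plots used Python 3.11.15, pandas 2.3.3, numpy 2.4.6 and matplotlib 3.10.9. Positions are from GENCODE M21, promoters from RefSeq.

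The members, the companion lists, the tests and the measures of spread were chosen with earlier results of these data known. Values were given per sample for units called, the 3 highest of each cluster, the 3 greatest differences of each comparison, the highest paralogue on in primary WT and units with a lone high sample. The choice of a gene's leading unit used its level. The values of 1 Hox unit and of 1 companion gene are not reported here, though both stay in the counts, sums and tests.

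Lines come from the same embryos as primary populations, so the samples are paired. Deviations from group means correlated between a population and its line across units at 0.146, -0.00539 and 0.211 (WT E13.1, E13.8 and E14.4) and 0.106, 0.0881 and -0.019 (CIZ1 null E13.15, E13.17 and E14.2). Alternatives were the embryo as a block, a pseudocount of 0.1, no filter, a filter at a mean of 5 FPKM, quantile normalization, a single fit of 12 samples, other sets of primary CIZ1 null samples, doxycycline in the 4 transgenic samples alone, and each sample left out.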

Additional observations from a re-analysis of the deposited data

Results flagged for a closer look

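Hoxa7, a thoracic gene of HoxA, differed in direction between genotypes. On the log2(FPKM + 1) scale its difference between the adapted line and its primary population ran from -0.26 to -0.024 over the 3 WT embryos and from 0.26 to 1.16 over the 3 CIZ1 null embryos, so that every embryo of 1 genotype went one way and every embryo of the other the opposite way. The limma test of the difference itself, the interaction, gave 0.77 (SE 0.54, adjusted p = 0.996) and did not pass. Splits of this kind were found in 1.02% of all units.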

How the results depend on the processing

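The number of Hox units called was 0 in each of the 6 comparisons and stayed 0 in CIZ1 loss in primary cells, CIZ1 loss in adapted cells, the interaction and doxycycline under every alternative run. In WT adaptation it was 2 with no filter on mean FPKM and 0 to 2 with each sample left out, and in CIZ1 null adaptation 1 with no filter and 0 to 4. With the replicate block by embryo it was 0 in both, while all units called went from 1902 to 499 in WT and from 975 to 10 in CIZ1 null cells. The companion lists were less stable. Their 8 calls in WT adaptation became 0 with the block and 0 to 13 with a sample left out. Their 7 calls in CIZ1 null adaptation became 11 with all 12 samples in a single fit, 0 with the block, 0 with the 2 non-transgenic primary populations only, 1 with all 4 untreated primary CIZ1 null populations and 0 to 16 with a sample left out, and their 0 in the interaction 0 to 1. Over all units, leaving out a sample gave 62 to 2972 calls in WT and 25 to 2999 in CIZ1 null adaptation. Without the filter 988 and 322 were called, and without adapted E13.1 and E13.17 the Hox units listed at 0 or ranging over 8-fold were 6 and 8 in place of 22 and 22 (18 to 22 and 17 to 22 without any single line). The last comparisons were chosen after seeing the data.

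Single differences turned for Hoxb5 in the interaction (-0.55 without adapted E14.2, with a range of -0.55 to 2.01) and for Hoxd13 unit 3 under doxycycline (-0.43 without S13, with a range of -0.93 to 1.81 from leaving out S14 and S15). Hoxd13 in WT adaptation passed at -2.97 without adapted E13.1, and Hoxc8/Hoxc9 in CIZ1 null adaptation at -3.24 without adapted E13.15. Quantile normalization moved the median of all units from -0.05 to 0.06 in WT and from -0.04 to 0.06 in CIZ1 null adaptation, and the WT calls from 572 higher and 1330 lower to 982 and 1081. Except where a setting removes samples or units, the cause was not tested.

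The 3 lines per genotype, each from 1 embryo, set the precision. The median SE of the Hox units was 0.75 to 1.21 in comparisons with adapted lines, and 0.47 (WT) and 0.64 (CIZ1 null) in the paired fits of adaptation, and changes well under these were not detectable. Depth is unknown from FPKM, so that a unit listed at 0 has no upper limit here, and units of 1 locus share reads.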

Other observations

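A few values outside the comparisons stood out by line. Evx2, the homeobox gene beside Hoxd13, was at 1.39 FPKM in adapted E13.1, where Hoxd13 was at 47.1, and listed at 0 in the other 5 lines, against 0.0442 to 0.335 in primary populations. Its second unit was at 2.14 in the same line. The leading unit of Pknox2, of a family of Hox partners, was listed at 0 in adapted E13.15 and E14.2, the CIZ1 null lines with low posterior HoxA, and was at 1.88 to 5.31 in the other 4 lines. Those 4 include WT E14.4, where HoxA paralogues 9 to 13 summed to 1.35 FPKM, below the 5.04 of E13.15.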
